A study of Mus musculus with 12 samples.

Results

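Cluster 13 is a small group of tumor-infiltrating T cells that the study's clustering set apart in MC38 tumors, and its members were taken as every cell that the deposited cell annotation assigns to cluster 13. It held 631 of 93126 cells (0.678%), and it was 1 of 9 clusters of T and NK cells, which together held 12021 cells. Cluster 13 cells were found in 47 of 48 tumors, with 0 to 76 cells per tumor (median 8.5). The 1 tumor without any was a CC007 aPD1 tumor with 53 cells in all, which allows a share of up to 6.76% (95% Wilson interval).

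MC38 is a colon carcinoma line of C57BL/6J (B6) origin, and every tumor came from the same line. The hosts were female B6 mice and female F1 mice of B6 crossed with CC001/UncJ, CC002/UncJ, CC075/UncJ, CC036/UncJ, CC079/TauUncJ, CC080/TauUncJ or CC007/UncJ, which are inbred strains of the Collaborative Cross and are called by their numbers from here on. Mice of 8 to 12 weeks received 500000 MC38 cells under the skin, and when tumors reached 75 to 110 mm3 a single intraperitoneal dose of 200 µg of isotype control antibody (clone 2A3) or anti-PD-1 antibody (aPD1, clone 29F.1A12). Tumors were taken 48 h later, frozen, thawed and sorted to 90% CD45+ and 10% CD45- cells, so every share below is a share of sorted cells. They were run as 12 pools of 4 hashtagged specimens on the 10x 5′ single-cell platform. Values are also given for pools 1 to 6 and 7 to 12, a split by pool number that no label names as a batch. CC079 was in pools 1 to 6 alone, and CC036 and CC075 in pools 7 to 12 alone. CC001, CC002, CC080, B6 and CC007 were in both ranges. The ranges therefore differ in part of their strains, and for CC079, CC036 and CC075 strain and pool range cannot be told apart. The study classed CC001, CC002 and CC075 as responder strains and CC036, CC079 and CC080 as non-responder strains from tumor growth in other animals, and that class is not in the sample labels. There were 10 isotype and 10 aPD1 tumors of responder strains, 9 and 9 of non-responder strains, and 5 and 5 of B6 and CC007, which have no class here. Hosts of 1 strain share a genotype, so each class is 3 genotypes and not as many independent hosts as tumors. A hashtag was never used for both antibodies, and hashtag and treatment cannot be told apart. Tumors held 53 to 3082 cells and 88816 to 17713491 UMIs (unique molecular identifiers, each counting 1 captured RNA molecule), and the median cluster 13 cell had 2549 UMIs and 1131 genes.

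A T cell that meets its antigen signals through the T cell receptor, calcium and the factors NFAT, AP-1 and NF-κB, and within hours it makes cytokines, surface costimulators and the machinery of growth. Interferon gamma (Ifng) acts on macrophages and tumor cells, and interleukin 2 (Il2) is a growth factor for T cells. Xcl1 draws cross-presenting dendritic cells (cDC1), Ccl3 and Ccl4 draw monocytes and T cells, and Crtam is an adhesion receptor that appears on T cells soon after activation. The promoters of the cytokine and chemokine genes are shown because these genes carry the identity of the cluster. They are the 250 bases before the annotated start in RefSeq on GRCm38.p6, a B6 reference, written 5′ to 3′ on the strand of the gene, with capitals for the NFAT core GGAAA on either strand. Of the 5 label genes Ifng, Il2 and Xcl1 were matched in the promoter table, and Ccl4 and Crtam were not. Ccl3 is added as the chemokine next to Ccl4 in the list.
Ifng, chr10:118440796-118441045, plus strand: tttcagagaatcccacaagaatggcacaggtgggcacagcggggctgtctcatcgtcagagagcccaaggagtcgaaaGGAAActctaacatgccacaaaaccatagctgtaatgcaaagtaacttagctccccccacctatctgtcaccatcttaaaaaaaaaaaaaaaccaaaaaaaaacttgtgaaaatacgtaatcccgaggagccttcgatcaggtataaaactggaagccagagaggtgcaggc
Il2, chr3:37125955-37126204, minus strand: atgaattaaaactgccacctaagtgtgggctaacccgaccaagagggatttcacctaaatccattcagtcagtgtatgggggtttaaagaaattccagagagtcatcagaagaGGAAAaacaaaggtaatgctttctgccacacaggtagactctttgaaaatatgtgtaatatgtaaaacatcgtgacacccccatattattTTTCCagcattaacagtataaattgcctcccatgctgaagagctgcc
Xcl1, chr1:164935523-164935772, minus strand: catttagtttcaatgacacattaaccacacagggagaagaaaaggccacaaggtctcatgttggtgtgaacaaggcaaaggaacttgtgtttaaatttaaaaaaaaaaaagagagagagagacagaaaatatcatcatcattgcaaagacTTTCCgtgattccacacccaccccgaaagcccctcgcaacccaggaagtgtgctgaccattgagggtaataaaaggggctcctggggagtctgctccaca
Ccl3, chr11:83649379-83649628, minus strand: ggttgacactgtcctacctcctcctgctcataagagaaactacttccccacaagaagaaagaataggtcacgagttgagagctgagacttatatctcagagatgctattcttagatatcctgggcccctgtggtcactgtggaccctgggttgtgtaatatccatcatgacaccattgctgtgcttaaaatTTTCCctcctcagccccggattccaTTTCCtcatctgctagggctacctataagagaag

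The Il2 window held 2 NFAT cores, which began 137 and 47 bases before the start. The Ccl3 window also held 2, at 59 and 34 bases, while Ifng held 1 at 172 and Xcl1 held 1 at 100. None of these windows held the AP-1 letters TGANTCA, which do not overlap the NFAT core. GGAAA occurred in 55.6% of 32851 promoters of the same length, 21.4% held 2 or more, and TGANTCA occurred in 6.75%. A match is a run of letters, and no binding was measured here.

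The label genes were checked first. Values below are CPM (UMIs of a gene per 1000000 UMIs of the cluster's cells in a tumor), taken in the 23 tumors with at least 10 cluster 13 cells, and 22 of these tumors also had at least 10 cells of cluster 3, the larger CD8 T cell cluster of the same tumors. The clusters were made from these same genes, so differences between clusters are descriptions with no test. Ifng (chr10:118441046-118445892, plus strand) ran from 285 CPM to 20129 CPM with a median of 4700 over the 23 tumors. The lowest was a CC080 isotype tumor of pool 11, whose 10 cluster 13 cells held 3 CD4 cells and 7 without a coreceptor UMI and no CD8 cell, and the next lowest, at 1093, a CC001 aPD1 tumor of pool 1. In cluster 3 the range was 260 to 1233 CPM. Ifng was higher in cluster 13 than in cluster 3 in 22 of 22 tumors, at 6854 ± 4600 against 551 ± 226 CPM (SD, n = 22), a 12.4-fold difference of means.

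Among the label genes Il2 (chr3:37120523-37125959, minus strand) marked the cluster most sharply. It ran from 0 to 3283 CPM (median 453) in cluster 13 and from 0 to 6.11 CPM in cluster 3. A CC001 aPD1 tumor of pool 1 and a B6 aPD1 tumor of pool 6 had no Il2 UMI in the cluster, and 20 of 22 tumors were higher in cluster 13. Of all Il2 UMIs of the series 71.1% were in these 631 cells and 0.201% in the 2809 cells of cluster 3. Of all Crtam UMIs 23.9% were in cluster 13, of Xcl1 36.6%, of Ccl4 16.9% and of Ccl3 13.7%. For Ifng the share within a tumor ran from 0% to 96.2% with a median of 41.3% over the 45 tumors with at least 20 Ifng UMIs.

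The chemokines followed. Xcl1 (chr1:164931644-164935527, minus strand) ran from 483 to 30328 CPM (median 4972) and was higher than in cluster 3 in 22 of 22 tumors, at 6677 ± 6913 against 372 ± 363 CPM (17.9-fold). Ccl4 (chr11:83662584-83664683, plus strand) ran from 3884 to 68156 CPM (median 25823), against 1180 to 7628 CPM in cluster 3. The groups overlapped for Ccl4, but within a tumor cluster 13 was higher in 22 of 22, at 29843 ± 15018 against 3389 ± 1535 CPM (8.80-fold). Ccl3 was 6.71-fold higher, Ccl1, a ligand of CCR8, 9.39-fold higher in 19 of 22 tumors, and Ccl9 (under 20 CPM in cluster 3) 60.0 against 7.20 CPM. Ccl5, a chemokine of effector and memory T cells, was 2592 against 1928 CPM and higher in 13 of 22 tumors. Crtam (chr9:40969691-41004628, minus strand) ran from 0 to 682 CPM (median 239) and was 4.02-fold higher than in cluster 3, in 21 of 22 tumors.

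**Figure D1:**
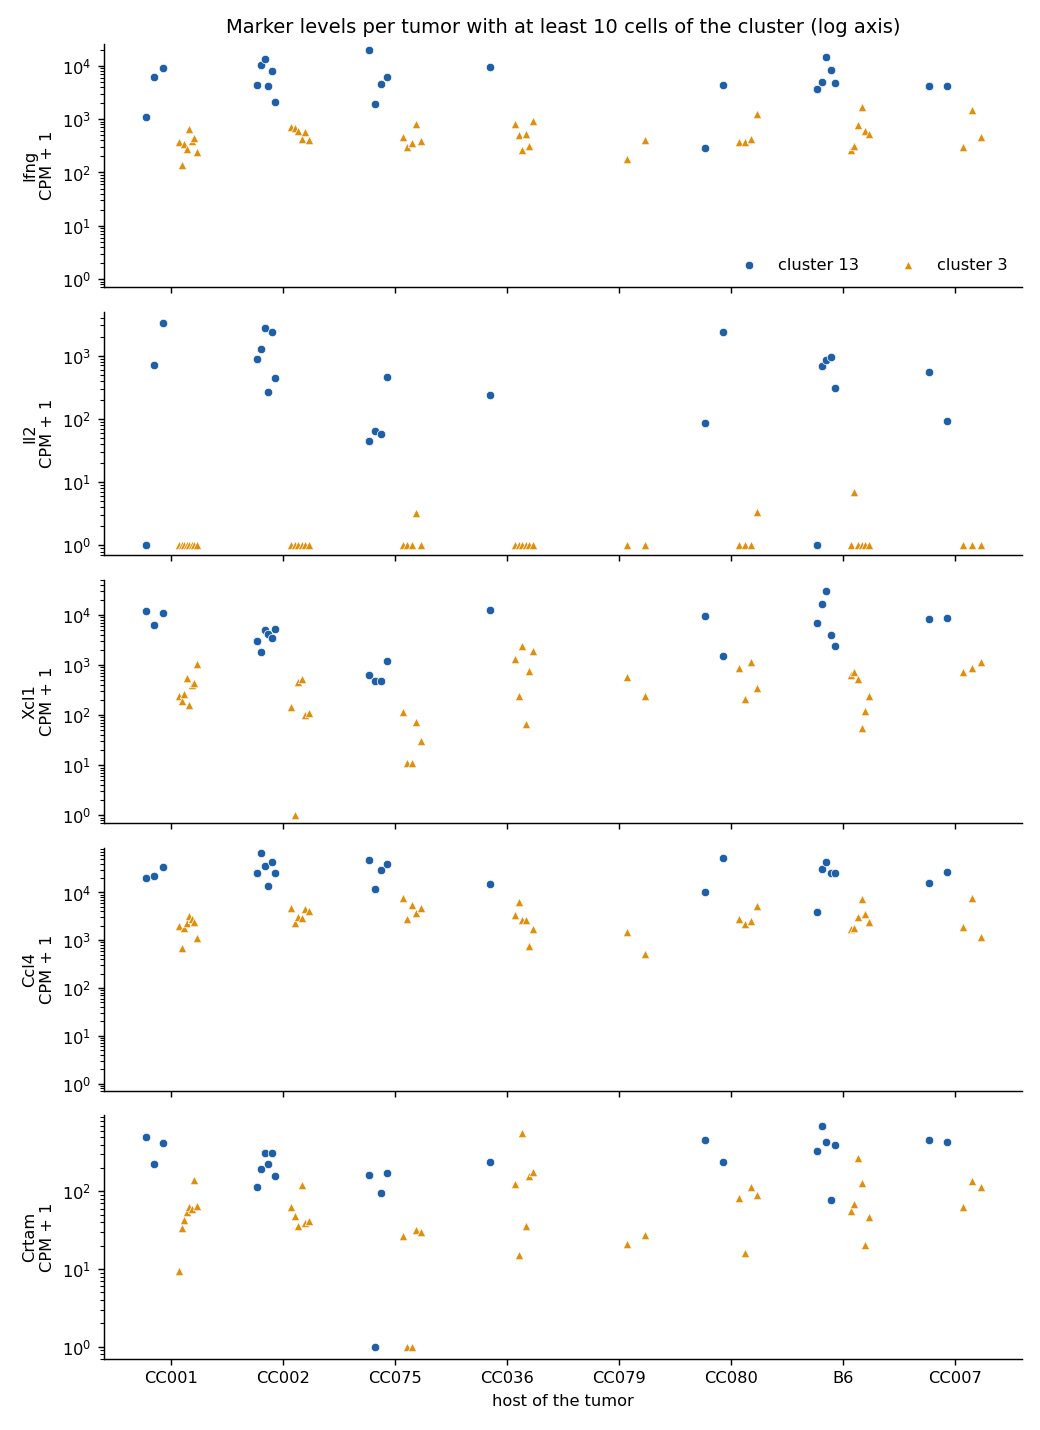
CPM + 1 (log axis) of the 5 label genes by host, 1 point per tumor with at least 10 cells of the cluster, circles for cluster 13 and triangles for cluster 3. Ifng, Xcl1 and Ccl4 of cluster 13 lie above cluster 3 of the same tumor in 22 of 22 tumors, and the 4 CC075 tumors are the lowest for Xcl1.

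Whole gene lists were read against the background of all genes. Of 6129 genes with at least 20 CPM in 1 of the clusters, 441 (7.2%) were at least 2-fold higher and 670 (10.9%) at least 2-fold lower in cluster 13 than in cluster 3 on the scale of tumor-mean CPM + 1, and the median gene was at −0.10 on the log2 scale. For list members that passed in cluster 3 itself the background is the 5685 genes that did so. Of these, 250 were at least 2-fold higher, with a median log2 ratio of −0.17. Of the cytokine list 15 of 17 members passed this floor, and 8 of them (Il2, Il3, Il10, Il13, Il21, Cd40lg, Tnfsf14 and Tnfsf8) passed through cluster 13 alone and so had to be higher there. Of the 7 that had at least 20 CPM in cluster 3 itself 5 (Ifng, Tnf, Csf2, Lta and Tnfsf11) were at least 2-fold higher and 1 (Ltb) lower, with a median log2 ratio of 2.01. In this and the other lists the lower members were not split in this way. Any that passed through cluster 3 alone had to be lower in cluster 13. Tnf, an inflammatory cytokine, was 168 against 31 CPM and higher in 22 of 22 tumors. Cd40lg, through which T cells license dendritic cells and B cells, was 131 against 6.52 CPM and higher in 21 of 22. Tnfsf14 was 47.6 against 5.31 CPM, Tnfsf8 76.05 against 17.8, Tnfsf11 125 against 30.3 and Lta 68.9 against 26.6. Lymphotoxin beta (Ltb), which naive and resting cells also carry, was 170 against 356 CPM and higher in 2 of 22 tumors. Cluster 3 is a CD8 cluster, and CD4 cluster 10 of the same tumors had more of several of these genes than cluster 13. Summed over tumors, Tnfsf8 was 854 CPM in cluster 10 and 135 in cluster 13, Tnfsf11 781 and 130.4, Csf2 548 and 158, Cd40lg 239 and 139, and Lta 149 and 69.5. Ccl1 was 1512 and 1737 CPM, while Ifng was 679.9 and 6314, Il2 109 and 722, Tnf 96.4 and 166, and Tnfsf14 22.1 and 54.2.

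Some cytokines came from few cells. Csf2, the growth factor GM-CSF, was 207 ± 493 CPM in cluster 13, and 25.2% of its UMIs came from 3 cells of the CC036 aPD1 tumor of pool 10. Il3 was found in 13 cells and Il13, a type 2 cytokine, in 6, and 45.9% of the Il13 UMIs came from 1 cell of the CC001 aPD1 tumor of pool 4. The same tumor gave 46.5% of the Il3 UMIs, and the type 2 cytokine Il4 had 1 UMI in all. Csf2 was found in 24 tumors, Il3 in 9 and Il13 in 5.

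The genes that the T cell receptor signal induces were higher in part. Of 22 listed, 8 (Nr4a1, Nr4a3, Egr2, Egr3, Irf4, Rel, Nfkbid and Myc) were at least 2-fold higher and none lower, with a median log2 ratio of 0.70, and Egr2 and Egr3 passed the floor through cluster 13 alone. Of the 20 that passed in cluster 3 itself 6 were at least 2-fold higher, with a median log2 ratio of 0.67. Nr4a1, an orphan nuclear receptor used as a gauge of receptor signal strength, was 600 against 204 CPM and higher in 21 of 22 tumors. Egr2 was 33.2 against 12.3, Egr3 61.9 against 15.6, and Irf4, which scales with signal strength in CD8 T cells, 295 against 134 CPM. Myc, which drives the growth of activated T cells, was 192 ± 116 against 33.3 ± 23.5 CPM and higher in 22 of 22 tumors. Nfatc1 was 152 against 137 CPM and higher in 13 of 22. Of 9 costimulators Cd40lg passed through cluster 13 alone, and of the other 8, 2 were at least 2-fold higher (Crtam and Tnfrsf4), and Tnfrsf9 (4-1BB) was 1122 against 674 CPM and Icos 516 against 310.

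Growth genes were mostly higher. Of 16 listed growth genes 12 were at least 2-fold higher and none lower, with a median log2 ratio of 1.42. The 12 were the nucleolar genes Ncl, Npm1, Nop56, Nop58, Fbl and Nolc1, the polyamine enzymes Odc1 and Srm with Eif5a, the mitochondrial chaperones Hspd1 and Hspe1, and the amino acid transporter Slc7a5, and the others were Atf3, Slc3a2, Ran and Nme1. Srm, a polyamine synthase, was 219 ± 108 against 26 ± 17.4 CPM (8.13-fold, 22 of 22 tumors). Ncl, the nucleolar protein nucleolin, ran from 909 to 1749 CPM in cluster 13 and from 217 to 610.5 in cluster 3, and these ranges did not overlap. Npm1 was 2268 against 916 CPM, Nolc1 261 against 60.0, Fbl 355 against 89.9 and the mitochondrial chaperone Hspd1 477 against 128, each higher in 22 of 22 tumors. The spread between tumors was 247 CPM (SD) around a mean of 1325 for Ncl, against 4600 around 6854 for Ifng. Genes of dividing cells were not among those higher: of 13 above the floor none was 2-fold higher and 6 were 2-fold lower, with a median log2 ratio of −0.97, Mki67 at 42.7 against 84.9 CPM and Stmn1 at 92.7 against 239.

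The cytotoxic genes split. Of 13 above the floor 5 were at least 2-fold higher (Gzma, Gzmb, Srgn, Serpinb9 and Serpinb6b) and 6 lower (Gzmc, Gzmd, Gzme, Gzmf, Gzmk and Ctsw). Gzmb, the main granzyme of activated CTLs, was 1422 ± 1297 against 611 ± 306 CPM and higher in 20 of 22 tumors, while perforin (Prf1) was 206 against 245 and higher in 9. Gzmf was at 0 against 109 CPM, Gzmd at 0 against 39.4 and Gzme at 0 against 27.5, and Gzmk was 6.30 against 55.1. Gzmf, Gzmd, Gzme and Gzmk were under the floor of 20 CPM in cluster 13 and passed through the other cluster alone. They had to be lower in cluster 13, so the lower side of this list rests in part on the floor. Serpinb9, which shields cells from their own granzyme B, was 341 against 161 CPM.

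The inhibitory receptors differed in direction. Pdcd1, which encodes PD-1, the target of the antibody, was 163 ± 79.9 against 283 ± 65.0 CPM and higher in cluster 13 in 1 of 22 tumors. Lag3 was 209 ± 97.8 against 424 ± 147 CPM and Tox, a factor of exhausted T cells, 256 against 497, and neither was higher in any of 22 tumors. Entpd1 (CD39) was 47.3 against 123 CPM, while Cd160 was 223 against 92.5, Btla 42.2 against 19.8 and Havcr2 (TIM-3) 313 against 198. Btla passed the floor through cluster 13 alone, and of the 11 that passed in cluster 3 itself 1 (Cd160) was at least 2-fold higher and 4 were lower, a median log2 ratio of −0.80. The 11 were not screened for members under the floor in cluster 13, which had to be lower there. None of 7 genes of naive and memory T cells differed by 2-fold, and Tcf7 was 16.2 against 11.9 CPM.

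Of 11 cytokine receptor genes above the floor 1 was at least 2-fold higher (Il2ra) and 1 lower (Ifngr1), shares near those of all genes, and the median log2 ratio was −0.095. Il2ra, the chain that gives high affinity for IL-2, was 508.5 ± 206 against 110 ± 62.5 CPM and higher in 22 of 22 tumors. Il2rb was 333 against 565 CPM and higher in none, and Il2rg was 342 against 365. The receptor chain for interferon gamma, Ifngr1, was 108 against 296 CPM and higher in 1 of 22 tumors. Of 9 listed genes of the T cell lineage 1 (Cd3g) was at least 2-fold lower and none higher, near the background, with a median log2 ratio of −0.34. Cd3g was 433 against 953 CPM and Cd3e 753 against 1211, each higher in none of 22 tumors. Trac, the constant part of the receptor alpha chain, was 546 against 462 CPM in the cells with a Cd8 UMI of clusters 13 and 3, summed over tumors.

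The 20 genes with the highest ratio to all other T and NK cells held the label genes and several that no list named. Crabp2, a retinoic acid binding protein, was 170 against 7.35 CPM in cluster 3, the host transcript of miR-155 (Mir155hg) 470 against 119, the non-coding Snhg15 177 against 24.8 and the adhesion molecule Alcam 1003 against 362, and each was higher in 22 of 22 tumors. The BCAA transaminase Bcat1 was 81.1 against 11.7 CPM, Perp 66.2 against 10.3, Utf1 59.6 against 9.01 and Zbtb32, a repressor in activated lymphocytes, 187 against 79.0.

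**Figure D2:**
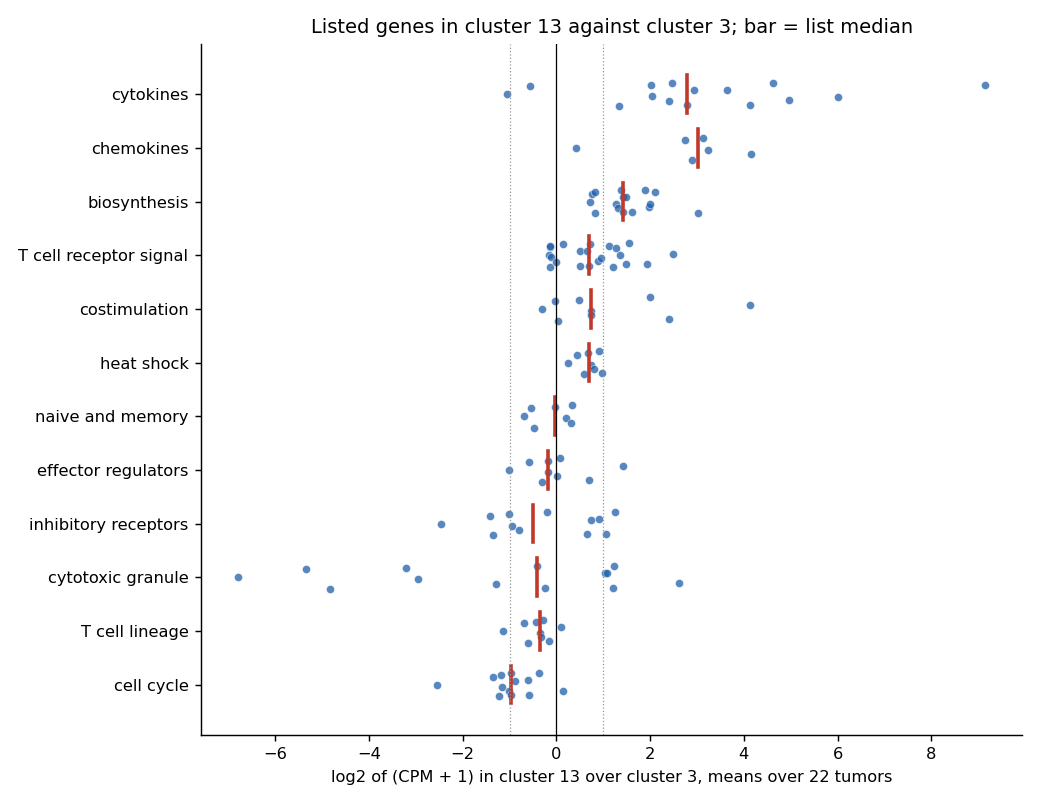
Log2 ratio of tumor-mean CPM + 1 in cluster 13 over cluster 3 (x axis), 1 point per gene above the floor and 1 line per gene list, with a bar at the list median, over 22 tumors. Chemokines, cytokines and biosynthesis lie to the right (medians 3.02, 2.79 and 1.42) and cell cycle to the left (−0.97), and 8 of the 15 cytokines and 1 of the 6 chemokines passed the floor through cluster 13 alone. The 7 cytokines that passed in cluster 3 itself had a median of 2.01, and the 5 such chemokines 3.14.

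The cells were then compared one by one at an equal depth of 1000 UMIs, which left 591 cells and left out 40. An Ifng UMI was found in 57.2% of them (65.3% before thinning), against 27.8% of cluster 3 (46.6%) and 0 of 1950 cells of macrophage cluster 2 (0.25% before thinning), which allows up to 0.197% of cells with a UMI at that depth. These were the cells deep enough among 2000 drawn from the 18964 of cluster 2. For Il2 it was 13% (16.2%), against 0 of 2600 cells of cluster 3, which allows up to 0.148%, and 3.27% of CD4 cluster 10. For Xcl1 it was 50.1% (57.2%), against 9.65% of cluster 3 (15.9%), 58.6% of NK cluster 24 and 0.154% of cluster 2. Ccl4 was found in 72.8% (75.8%) of cluster 13, 52.3% of cluster 3 and 17.1% of cluster 2, and macrophages also transcribe this gene. Crtam was found in 21% (39.8%), against 4.08% of cluster 3. Median depths were 2549 UMIs in cluster 13, 2823 in cluster 3 and 3881 in cluster 2.

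The label genes were seldom found all together. At 1000 UMIs 10 of 591 cells (1.69%) carried all 5 label genes, 162 (27.4%) carried 3 and 100 (16.9%) carried none. Ifng was found in 85.7% of the 77 cells with an Il2 UMI and in 52.9% of the 514 others, and 11 cells had Il2 without Ifng. Cytokine counts were concentrated: the 60 cells with the most UMIs of a gene held 96.5% of the Il2 UMIs, 58.3% of Ifng, 59.4% of Xcl1 and 43.2% of Ccl4, and 1 cell held 93 Ifng UMIs of its 1000. Across the 591 cells, which share libraries and are no replicates, Spearman's coefficient was 0.82 for Ccl4 with Ccl3, 0.75 for Ifng with Ccl3, 0.30 for Ifng with Il2, 0.33 for Xcl1 with Crtam and 0.01 for Xcl1 with Gzmb.

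The CTL label held for most but not all cells. Cells with a Cd8a or Cd8b1 UMI and no Cd4 UMI numbered 400 (63.4%, in 42 tumors), cells with Cd4 alone 36 (5.71%, in 23 tumors), cells with both 3 and cells with neither 192 (30.4%). The last had a median of 1940 UMIs, against 2960 in the CD8 cells, and 92.2% of them had a UMI of a CD3 or T cell receptor gene. At the equal depth used above, a Cd8a UMI was found in 33.3% of cluster 13 and 51.1% of cluster 3. For Cd8b1 it was 25.55% and 46.2%. In CPM, Cd8a was higher in cluster 13 in 1 of 22 tumors. Whether low depth accounts for the cells without a coreceptor UMI was not tested. The defining genes of other types were near 0: macrophage markers made up 0.0117% of UMIs (0.0125% in cluster 3, 1.32% in macrophage cluster 2) and NK markers 0.0081% (0.0249% in cluster 3). No cell had over 1% of either, but cluster 2 itself was at 1.32%, so this limit could miss cells of mixed origin. An NK marker UMI was found in 87 of the 400 CD8 cells and 15 of the 192 with neither coreceptor. Of the 631 barcodes 68 also occurred in another library (10.8%, against 10.9% of all cells), and none was shared within cluster 13.

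The CD4 cells were set beside the CD8 cells as sums over tumors, as a description of few cells. Of the 36 CD4 cells 7 had a Foxp3 UMI. Pooled over tumors, Ifng was 1034 CPM in CD4 and 7087 in CD8 cells, Xcl1 744 against 6139 and Ccl4 947 against 33609. Il2 was 961 against 607 CPM, Tnfsf8 (CD30 ligand) 513 against 64.6, Tnfsf11 (RANKL) 434 against 90.1 and Cd40lg 246 against 121. Prf1 had no UMI in the CD4 cells. Their Xcl1 came from 2 cells, their Ccl4 from 6 and their Ifng and Il2 from 11 each. In the 29 CD4 cells without Foxp3 Ifng was 1299.8 CPM, Xcl1 936, Ccl4 1036 and Il2 1209 (an alternative chosen after seeing the data). No tumor had at least 5 cells of each kind, so no test over tumors was made. The share of CD4 among cells with a coreceptor UMI was 8.24% ± 8.32 in 15 responder and 10.6% ± 12.2 in 4 non-responder tumors with at least 5 such cells, a difference of −2.32 percentage points (two-sided exact permutation test of ranks, p = 1.0).

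A set of cells with Foxp3, the defining factor of regulatory T cells, went against the label. They numbered 38 (6.02%, 95% Wilson interval 4.42 to 8.16) in 19 tumors, and 37 of them had no Cd8 UMI. Foxp3 was found in 0.356% of cluster 3, 0.274% of macrophage cluster 2 (median 3881 UMIs) and 38.5% of regulatory T cell cluster 8. The Foxp3 cells had 0 UMIs of Ifng, Il2, Xcl1, Crtam, Prf1 and Gzma, where 3 UMIs would be 22.9 CPM, while the CD8 cells of the cluster had 7036 CPM of Ifng. Ccl4 was 518 CPM (exact Poisson 95% interval 402 to 657) against 33352. Il2ra was 1287 CPM in the Foxp3 cells, 381 in the CD8 cells of the cluster and 842 in the Foxp3 cells of cluster 8. Tnfrsf4 (OX40) was 2293, 115 and 1063 CPM in the same order, Ctla4 1577, 187 and 1328, and Ikzf2 1105, 54.8 and 1921.

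Several growth genes were nearer to the CD8 cells of cluster 13 than to cluster 8 in these Foxp3 cells, and Odc1 was not. The clustering placed these cells in cluster 13 by their transcripts, so this likeness was in part set by that placement and is a description. Their median depth was 3367.5 UMIs, against 2962 in the CD8 cells and 1680 in the Foxp3 cells of cluster 8. Ncl was 1059 CPM (890 to 1250) in the Foxp3 cells of cluster 13, 1251 (1193 to 1312) in its CD8 cells and 484 (456 to 513) in the Foxp3 cells of cluster 8. Npm1 was 2049, 2259 and 901 CPM in the same order, Srm 145, 209 and 25.7, and Nop56 160, 198 and 63.6. Myc and Irf4 were between, at 91.4, 177 and 35.7 CPM and at 183, 358 and 68.9 CPM, and the polyamine enzyme Odc1 was 754, 199.7 and 651 CPM. Gzmb was 1280 CPM in the Foxp3 cells, 1584 in the CD8 cells and 795 in the Foxp3 cells of cluster 8. Intervals cover counting error only. By treatment the Foxp3 cells were 13 of 371 cluster 13 cells (3.50%) from isotype and 25 of 260 (9.62%) from aPD1 tumors, and 7 of the 25 came from the CC002 aPD1 tumor of pool 3 and 5 from the B6 aPD1 tumor of pool 6. In pools 1 to 6, which held 31 of the 38, they were 11 of 138 isotype (7.97%) and 20 of 132 aPD1 cells (15.2%), and in pools 7 to 12 they were 2 of 233 (0.858%) and 5 of 128 (3.91%). Neither split was tested. Cells without a UMI of any label gene numbered 85 (13.5%, in 30 tumors), 31 of them with Foxp3, and their Ncl was 1215 CPM against 1337 in the other cells of the cluster.

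**Figure D3:**
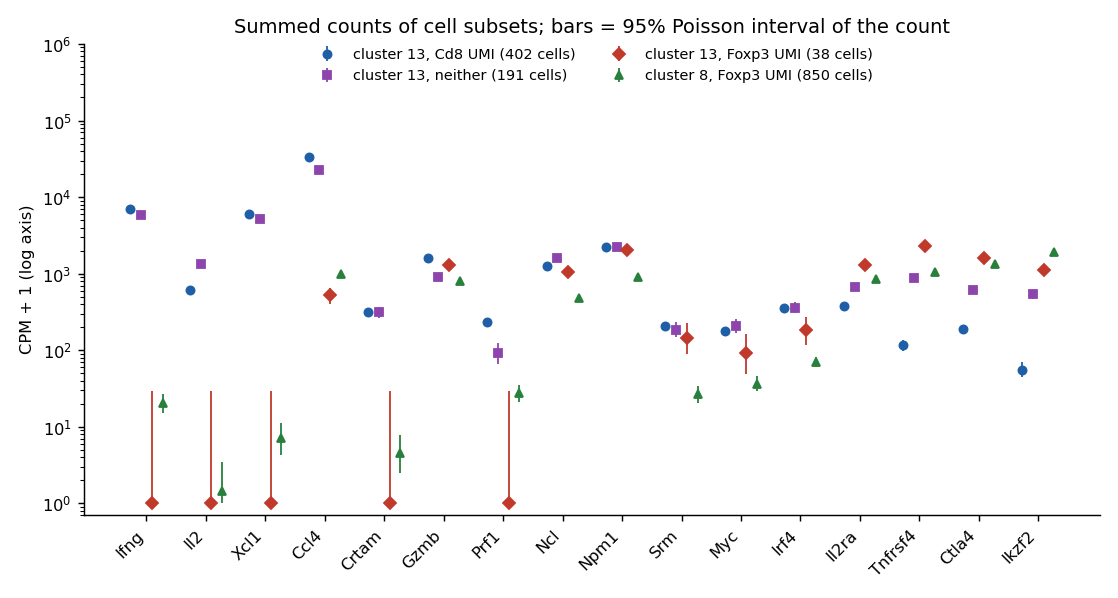
CPM + 1 (log axis) of 16 genes in 4 sets of cells: cluster 13 with a Cd8 UMI (402 cells), with neither Cd8 nor Foxp3 (191), with Foxp3 (38), and cluster 8 with Foxp3 (850), with exact Poisson 95% intervals that cover counting error. The Foxp3 cells of cluster 13 have no Ifng, Il2 or Xcl1 UMI and are near the CD8 cells for Ncl and Npm1.

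Among hosts Xcl1 of cluster 13 stood apart in CC075. In the 4 CC075 tumors with at least 10 cluster 13 cells Xcl1 was 483 to 1223 CPM (median 560), and in the 19 tumors of other hosts 1498 to 30328 (median 6448), with no overlap. In cluster 3 the 5 CC075 tumors had 9.95 to 117 CPM and 35 others 0 to 2364, of which 5 lay at or under the highest CC075 tumor, and in NK cluster 24 they had 526 to 1927 against 1009 to 6636 CPM in 33 tumors, of which 12 lay at or under it. In clusters 7, 12 and 1 of the T and NK cells the CC075 tumors did not stand apart, with 66.7 to 667, 41.8 to 841 and 16.7 to 201 CPM, and 33 of 38, 13 of 15 and 9 of 16 other tumors lay at or under the highest of them. Cluster 12 also carried macrophage genes, with Apoe at 1813 CPM (29.6 in cluster 3 and 2887 in macrophage cluster 2) and C1qb at 1065 CPM (20.8 and 1669), beside 378 CPM of Cd3e. Ifng of the same CC075 tumors was 1905 to 20129 CPM and overlapped the 285 to 14602 CPM of the other hosts. Crtam was also low in cluster 13 of these tumors, at 0 to 172 CPM, and overlapped the 77.2 to 682 CPM of the other hosts. Xcl1 and CC075 were chosen after the values were seen, and no test was made.

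How many of these cells a tumor held was compared by class and treatment. Shares count annotated cells, and a share can move through the other cells of the tumor as well. In isotype tumors the share of cluster 13 among all cells was 0.0522% to 6.45% (median 0.692) in responder and 0.0365% to 0.720% (median 0.294) in non-responder strains. The groups overlapped, and 5 of the 10 responder tumors exceeded the highest non-responder tumor. Means were 1.60% ± 2.08 (SD, n = 10) and 0.316% ± 0.239 (n = 9), a difference of 1.29 percentage points that did not pass (two-sided exact permutation test of ranks, p = 0.0789, adjusted 0.263 over 10 tests). Without CC001 it was 2.14 (exact p = 0.00759), and it was 0.670 to 2.14 over all omissions of 1 strain or pool (exact p from 0.00759 to 0.408). Within pools 1 to 6 it was 0.566 (exact p = 0.0952, 5 against 5 tumors), and within pools 7 to 12 it was 1.98 (exact p = 0.556, 5 against 4). With pools as blocks, the paired difference was 0.924 in 8 pools, 7 of them higher in the responder strain (exact sign flips, p = 0.0234).

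In aPD1 tumors the class difference passed the test. The share was 0.270% to 1.23% (median 0.722) in responder and 0.0450% to 0.514% (median 0.130) in non-responder strains, and 7 of the 10 responder tumors exceeded the highest non-responder tumor. Means were 0.727% ± 0.323 (n = 10) and 0.233% ± 0.172 (n = 9), a difference of 0.494 percentage points (exact permutation p = 0.00210, adjusted 0.0210), and the responder strain was higher in 8 of 8 pools with both classes. Within pools 1 to 6 the difference was 0.676 (exact p = 0.00794, 5 against 5 tumors), and within pools 7 to 12 it was 0.289 (exact p = 0.413, 5 against 4). The study itself named clusters 3 and 13 as enriched in responder strains from these tumors, so this comparison is not independent evidence. It reported the enrichment under both treatments, while the isotype difference of the share of all cells did not pass here.

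Among T and NK cells alone the class difference was larger in isotype than in aPD1 tumors, and that contrast is tested below as a difference of effects. In isotype tumors cluster 13 was 0.444% to 22.7% (median 7.31) of T and NK cells in responder and 0.53% to 6.06% (median 1.89) in non-responder strains. Means were 8.88% ± 7.01 (n = 10) and 2.4% ± 1.75 (n = 9), a difference of 6.47 percentage points, higher in 8 of 8 pools (exact permutation p = 0.0101, adjusted 0.0507), which does not pass over 10 tests. It was 3.88 within pools 1 to 6 (exact p = 0.0317) and 8.94 within pools 7 to 12 (exact p = 0.286), and 4.30 without CC075 (exact p = 0.0549). In aPD1 tumors it was 5.55% ± 3.09 against 3.83% ± 2.67, a difference of 1.72 (exact permutation p = 0.182, adjusted 0.397). With pools as blocks the paired difference was 2.46 (exact sign flips, p = 0.0469), with 2.19 in the lower and 1.10 in the higher pool numbers (exact p = 0.222 and 0.730).

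Strains of 1 class were not alike. In isotype tumors the share of all cells was 0.0522% to 0.544% in the 4 CC001 tumors, which overlapped all 3 non-responder strains, 0.840%, 1.82% and 6.45% in CC002 and 0.263%, 1.24% and 4.11% in CC075. The 6.45% came from a tumor of 248 cells, 16 of them of cluster 13 (95% Wilson interval 4.01 to 10.2). CC079 had 0.0365%, 0.115% and 0.294% under isotype and 0.0450%, 0.119% and 0.130% under aPD1. CC036 had 0.164%, 0.464% and 0.720% under isotype and CC080 0.0669%, 0.429% and 0.554%, and CC080 had 0.0906%, 0.104% and 0.324% under aPD1. Without class, B6 had 0.435%, 0.870% and 3.47% and CC007 0.973% and 1.26%. The last were within the range of the responder strains.

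With all strains, no treatment difference of the share passed the test. In responder strains aPD1 minus isotype was −0.874 percentage points of all cells (permutation p = 0.854, adjusted 0.905), and aPD1 was higher in 4 of 10 same-pool pairs of a strain. In non-responder strains it was −0.0826 (exact permutation p = 0.605, adjusted 0.756), with 4 of 9 pairs higher, and these effects differed by −0.792 (exact p = 0.905). The responder value rested on the CC075 isotype tumor of pool 9 and the CC002 isotype tumor of pool 12, without which it was 0.0461. Of T and NK cells it was −3.33 in responder (permutation p = 0.245) and 1.42 in non-responder strains (exact permutation p = 0.198), a difference of effects of −4.75 (exact p = 0.356). Without CC001 the responder value was −6.77 (exact p = 0.0411, unadjusted). By strain the share of all cells was higher under aPD1 in 3 of 4 pairs of CC001, 2 of 3 of CC079, 1 of 3 of CC075, CC036, CC080 and B6 each, and in none of 3 of CC002 or 2 of CC007. The same counts held for the share of T and NK cells except in CC036, with 2 of 3. The aPD1 tumor of 1 CC007 pair is the one of 53 cells, whose interval reaches 6.76% against 0.973% in its isotype partner, so this pair shows no lower share.

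**Figure D4:**
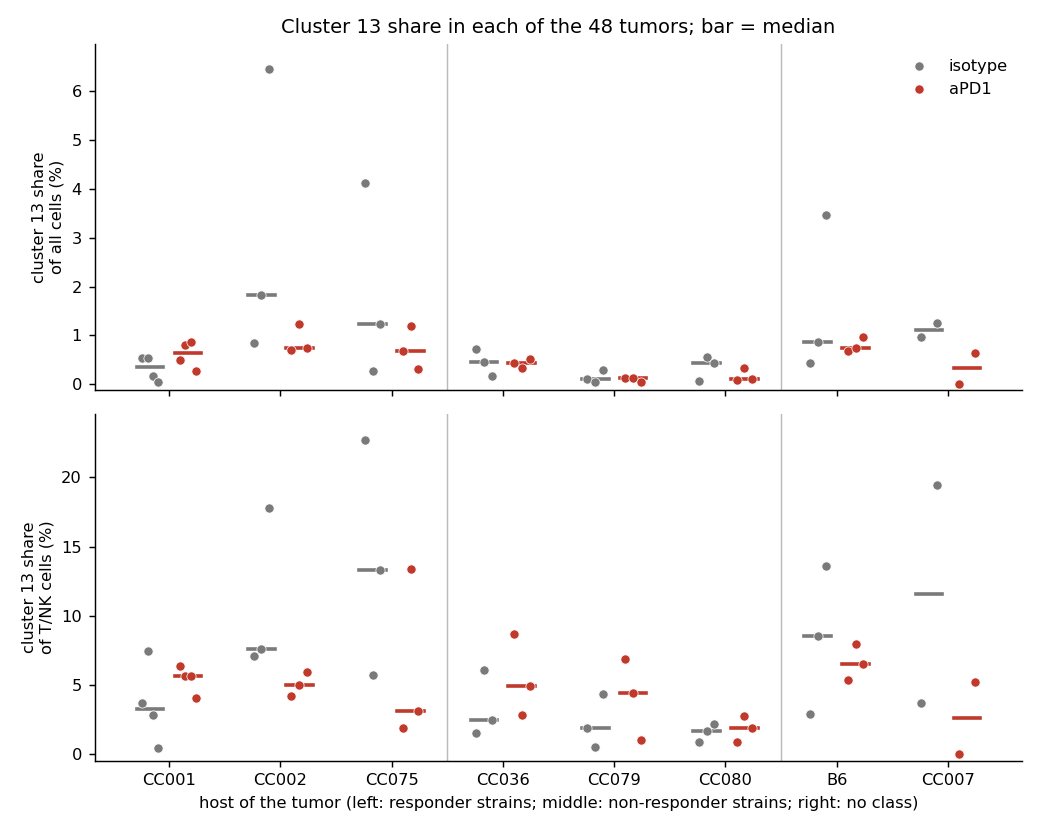
Share of cluster 13 (percent) among all cells and among T and NK cells by host, 1 point per tumor, isotype in grey and aPD1 in red, with a bar at the median, and vertical lines between responder strains, non-responder strains and hosts without a class. For the share of all cells, 7 of the 10 aPD1 points of responder strains exceed the highest non-responder aPD1 point.

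Within the cells, genes were then tested between classes on UMIs summed per tumor, in 13 responder and 3 non-responder tumors of 5 strains with at least 10 cluster 13 cells (edgeR, 1150 genes tested). The test called 3 genes (0.261%), and none of the listed genes. Gm10260 (chr13:97760072-97760632, minus strand) was 0 to 34.4 CPM in responder and 881 to 1300 CPM in non-responder tumors, without overlap, a log2 difference of −6.96 (SE 0.40, adjusted p = 1.64e-10). Rps18 (chr17:33951999-33956001, minus strand), a protein of the small ribosomal subunit, was 3222 ± 508 against 1808 ± 233 CPM, a log2 difference of 0.82 (SE 0.17, adjusted p = 0.0282). Ifitm2 (chr7:140954837-140955987, minus strand), an interferon-induced membrane protein, was 0 to 250 against 341 to 646 CPM, a log2 difference of −2.82 (SE 0.57, adjusted p = 0.0282). Calls of Rps18 and Ifitm2 were lost without any of pools 3, 4, 5, 10 or 11 and without CC002, CC036, CC075 or CC080, and that of Ifitm2 also without pool 9.

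Gm10260 and Rps18 are near copies: 365 of the 531 words of 31 bases in Gm10260 (68.7%) also occur in Rps18, so the counting could split reads of one between both, and their values are uncertain. Their sum was 2971 CPM in CC036 and 2556 to 3073 in CC080, within the 2495 to 4216 of CC002. Gm10260 was also 1594 and 1707 CPM in cluster 13 of CC007, which has no class, and 408 to 985 in macrophages of CC007, CC036, CC079 and CC080 against 0.25 to 16.8 in B6, CC001, CC002 and CC075. Among the strains with a class, host genotype and class cannot be told apart.

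The signature genes did not pass between classes. Xcl1 was 1498, 9645 and 12388 CPM in the 3 non-responder tumors, and its log2 difference was −1.20 (SE 0.68, adjusted p = 0.948 by edgeR). With no filter on low counts 10 of 10914 genes were called by edgeR, among them Xcl1 (log2 −0.93, adjusted p = 0.00481), Irf4 (log2 2.16, adjusted p = 0.00359) and Gzma (log2 2.96, adjusted p = 8.26e-06). The check on simulated counts used the filtered genes alone, so p-values with no filter were not checked in that way. In the fit with the filter Irf4 was 323 against 92.6 CPM (log2 1.86, adjusted p = 0.605), Csf2 141 against 1098 (log2 −3.59, adjusted p = 0.414 by edgeR), Bhlhe40 209 against 531 (log2 −1.26, adjusted p = 0.530) and Pdcd1 179 against 55.0 (log2 1.69, adjusted p = 0.772). Csf2 was also called by edgeR with no filter (log2 −3.32, adjusted p = 1.70e-23), without pool 4 (adjusted p = 0.000119) and without CC001 (adjusted p = 0.0181). It was 0, 1223 and 2069 CPM in the 3 non-responder tumors and 0 to 1252 CPM (median 15.6) in the responder tumors, so the classes overlapped. Leaving out pool 4 removed the non-responder tumor at 0. Of the 3 non-responder tumors the CC080 isotype tumor of pool 11 had no Cd8a UMI in the cluster and 2 Foxp3 cells among 10, and Cd8a was 506 against 241 CPM between the classes. Without it edgeR called Gm10260 alone, Irf4 was 323 against 110.4 CPM (log2 1.57, adjusted p = 0.842), Pdcd1 179 against 82.4 (adjusted p = 0.957), Csf2 141 against 1035 (log2 −2.81, adjusted p = 0.842), and Gzma 395 against 14.7 (log2 4.63, adjusted p = 0.842), an alternative chosen after seeing the data. In that fit Rps18 was at log2 0.92 and Ifitm2 at −2.93 (edgeR, adjusted p = 0.103 for each). Xcl1 was at log2 −0.58 (edgeR, adjusted p = 0.982). The fit has 3 tumors on 1 side, and these values do not show that the classes were alike. An unadjusted p under 0.05 was reached by 59 genes.

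Between treatments the test called 0 of 779 genes (0%) in 12 aPD1 and 11 isotype tumors of 7 hosts, with host as a term (edgeR, smallest adjusted p = 0.799). CC001 and CC036 had aPD1 tumors alone here, and CC007 and CC080 isotype tumors alone. The contrast therefore rested on B6, CC002 and CC075, while the means below are over all 7 hosts and mix host with treatment. An unadjusted p under 0.05 was reached by 30 genes, and by 29 with DESeq2, which also called 0. Ifng was 1093 to 20129 CPM (median 8253) in aPD1 and 285 to 10477 CPM (median 4275) in isotype tumors, and the groups overlapped. Means were 8615 ± 5324 and 4336 ± 2623 CPM, a log2 difference of 0.99 (SE 0.51, adjusted p = 0.996). With no filter on low counts Ifng was among 12 genes called by edgeR (log2 0.96, adjusted p = 7.00e-07), as were Ccl3 and Ctla4. The check on simulated counts did not cover this setting. In the 3 aPD1 and 6 isotype tumors with at least 20 cluster 13 cells Ifng was the 1 gene called. Its log2 difference was 2.00 (edgeR, adjusted p = 0.0315). At this minimum B6 and CC007 had isotype tumors alone, so the contrast rested on CC002 and CC075. For CC075 Ifng was 20129 CPM in 1 aPD1 tumor, against 6086 and 1905 under isotype. For CC002 it was 8172 and 4380 under aPD1, against 2116. The highest isotype value, 10477 CPM, came from a CC002 tumor under this minimum. With same-pool pairs as blocks 1 gene was called, Hmgb2, a chromatin protein of dividing cells, at 1.95 (edgeR, adjusted p = 0.00347), and both names were chosen after their values were seen. Ccl3 was 7571 against 4961 CPM (log2 0.70, adjusted p = 0.996), Il2 1008 against 597 (log2 0.48, adjusted p = 0.996) and Ctla4 492 against 371 (log2 1.34, adjusted p = 0.996). Foxp3 cells, with 1577 CPM of Ctla4 against 187 in the CD8 cells, were 9.62% of aPD1 and 3.50% of isotype cells of the cluster. Their part in the Ctla4 difference was not tested.

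The cluster was last set beside other cells of the same tumor. Over the 47 tumors with at least 200 cells, 6 relations of the log2 share of cluster 13 were computed. With a score of 9 genes that interferon gamma induces in macrophages (Cxcl9, Cxcl10, Irf1, Gbp2, Gbp5, Cd274, Ciita, Nos2 and Socs1), measured in macrophages, Pearson's r was 0.67 and Spearman's coefficient 0.64 (permutation p = 1e-05 for each, the smallest that 100000 resamples can give, adjusted 2e-05). Without the 2 tumors farthest from the median share r was 0.62. Spearman's coefficient was 0.66 in pools 1 to 6 and 0.60 in pools 7 to 12 (permutation p = 0.00098 and 0.00256), 0.61 within non-responder strains (permutation p = 0.00868) and 0.37 within responder strains (permutation p = 0.106). For macrophage Cxcl9, a chemokine for CXCR3-bearing T cells that is also 1 of the 9 genes, r was 0.65 and Spearman's coefficient 0.73 (permutation p = 1e-05 for each, adjusted 2e-05), r was 0.63 without the 2 farthest tumors, and Spearman's coefficient was 0.70 and 0.69 in the same pool ranges, 0.55 within responder strains (permutation p = 0.0123) and 0.37 within non-responder strains (permutation p = 0.128). Both were weaker with cluster 13 as a share of T and NK cells. There Spearman's coefficient was 0.43 for the score and 0.54 for Cxcl9 (permutation p = 0.00312 and 0.00014).

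The share of cluster 3 moved with that of cluster 13 as a share of all cells (r = 0.65, Spearman 0.69, permutation p = 1e-05 for each, adjusted 2e-05, r = 0.60 without the 2 farthest tumors, Spearman's coefficient 0.86 and 0.54 in these pool ranges). Taken as a share of T and NK cells cluster 13 showed a Spearman's coefficient of 0.18 with it (permutation p = 0.239), and shares of all cells have a denominator in common. For cDC1, the cells that bear the receptor of Xcl1, r was −0.11 and Spearman's coefficient −0.13 (permutation p = 0.464 and 0.368, adjusted 0.541 and 0.442). The latter was 0.23 in pools 1 to 6 and −0.56 in pools 7 to 12 (permutation p = 0.285 and 0.00483), so the sign differed between the pool ranges. For migratory dendritic cells r was 0.19 and Spearman's coefficient 0.22 (permutation p = 0.198 and 0.145), and for regulatory T cell cluster 8 r was −0.09 and Spearman's coefficient −0.05 (permutation p = 0.541 and 0.716). With cluster 13 as a share of T and NK cells the latter was −0.50 (permutation p = 0.00039), and the cells of cluster 8 are part of that denominator. With cluster 13 as a share of all cells it was 0.38 in pools 1 to 6 (permutation p = 0.0726) and −0.22 in pools 7 to 12 (permutation p = 0.294).

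**Figure D5:**
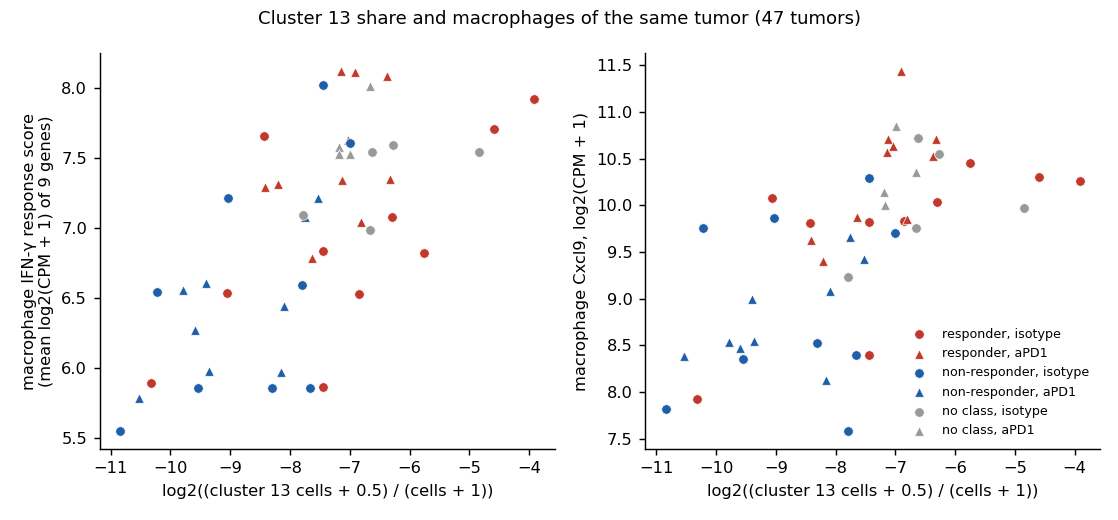
Log2 share of cluster 13 among all cells (x axis) against the macrophage interferon gamma score and macrophage Cxcl9 (y axes), 1 point per tumor, 47 tumors with at least 200 cells. Both rise with the share, with Spearman's coefficients of 0.64 and 0.73.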

How the data were processed

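The authors mapped 10x 5′ libraries with Cell Ranger to GRCm38 (mm10), removed cells over 15% mitochondrial or 45% ribosomal reads, assigned cells to tumors by hashtag and clustered them with Seurat 5.0.1 after harmony had corrected for the processing date, as the study's methods and the submitters' processing notes state. They deposited raw UMI counts of 27457 genes and a cell annotation, whose clusters were used as given. How doublets were treated is not given in the sources used here, and no caller was run.

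A tumor was 1 host strain and treatment in 1 pool. Nothing says that tumors of 1 strain came from separate litters or days, and 1 animal identifier stands on 2 tumors (CC080 isotype of pool 3 and aPD1 of pool 4), so p-values measure the spread between tumors. Shares were tested by two-sided permutation of ranks (exact, or 100000 resamples where both groups had 10), adjusted by Benjamini-Hochberg over 10 tests. UMI counts were summed per tumor with at least 10 cluster 13 cells and tested with edgeR 4.0.16 (quasi-likelihood, TMM, Benjamini-Hochberg over all genes tested, threshold 0.05) in R 4.3.3, with DESeq2 1.42.0 as an alternative. Scripts ran in Python 3.11.15 with scipy 1.17.1, and each fit was tested on simulated data with 200 changed genes, for the genes that passed the filter on low counts alone. Profiles used CPM with a pseudocount of 1 and a floor of 20 CPM. Intervals are 95% and cover counting error only. Sequences came from RefSeq (GRCm38.p6).

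Pool numbers mark a shared library. Same-pool isotype and aPD1 tumors of a strain share the host strain as well, and library and strain cannot be told apart in these values. The correlation of such pairs was 0.235 for responder and 0.427 for non-responder strains (share of all cells), and −0.243 and −0.139 (share of T and NK cells). Over genes it was 0.067 to 0.562 in 6 pairs.

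Named genes were list members, the up to 10 called genes of smallest p in each direction of a fit, and the 20 genes of highest ratio to other T and NK cells with at least 50 CPM. The members and lists were chosen with earlier results of these data known. One member of the interferon gamma score is not reported here and was left out of it.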

Additional observations from a re-analysis of the deposited data

Results flagged for a closer look

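Over 27 groups of tumors tested, 2 held a tumor far from the others, and chance gives about 1 in 20. Among aPD1 tumors of responder strains the CC075 tumor of pool 10 had 13.4% of its T and NK cells in cluster 13, against a median of 5.33% over the 10. This tumor also had the highest Ifng of the cluster (20129 CPM). Among the 4 CC075 tumors with at least 10 cluster 13 cells the isotype tumor of pool 9 had 453 CPM of Il2 in the cluster, against a median of 59.7.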

How the results depend on the processing

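The class difference of the share of all cells in isotype tumors was 1.29 by a test of means (exact p = 0.0480), 0.924 with pools as a replicate block (exact p = 0.0234), and 0.670 to 2.14 when single strains or pools were left out (2.14 without CC001, exact p = 0.00759, 1.48 without pool 4, 0.873 without pool 12). The largest exact p of these omissions was 0.408. It was 0.566 in pools 1 to 6 and 1.98 in pools 7 to 12 (exact p = 0.0952 and 0.556). In aPD1 tumors the class difference was 0.414 to 0.592 when strains or pools were left out, and 0.289 in pools 7 to 12. Of T and NK cells the isotype difference was 4.30 to 9.98 over such omissions, with 5.64 without CC002 (exact p = 0.0712), 4.30 without CC075 and 8.94 in pools 7 to 12, and the aPD1 difference was 2.46 in the block. The treatment difference of responder strains was −1.65 to −0.330 of all cells over the omissions, 0.0384 in pools 1 to 6 and 0.0461 without the 2 tumors named in the report (an alternative chosen after seeing the data), and the difference of effects was 0.110 in pools 1 to 6. Of T and NK cells the responder value was −6.77 to −1.38, with −6.77 without CC001 (exact p = 0.0411). The block changed no other call of a share.

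The number of genes called between classes was 10 with no filter on low counts and 1 to 4 when strains or pools were left out. DESeq2 and a term for pools 1 to 6 or 7 to 12 each called 4, the fourth being Tmsb10, and a minimum of 5 cells called 4, with Fnbp1 and Ms4a6b in place of Ifitm2. It was 1 without the CC080 isotype tumor of pool 11 (chosen after seeing the data). Between treatments it was 12 with no filter (Ifng, Ccl3 and Ctla4 among them), 1 with a minimum of 20 cells, 1 with the replicate block and 0 in every omission. The class fit with a minimum of 20 cells, which leaves responder tumors alone, and the fit of CD8 against CD4 cells with its alternatives were not run, and the CD4 share had no non-responder tumor at a minimum of 10 coreceptor-positive cells.

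Spearman's coefficient of the cluster 13 share was 0.37 with the interferon gamma score within responder strains and 0.37 with Cxcl9 within non-responder strains. With cDC1 it was −0.38 for the share of T and NK cells, 0.23 in pools 1 to 6, −0.56 in pools 7 to 12, 0.0571 within responder and 0.11 within non-responder strains. With regulatory T cells it was 0.0294 without the 2 farthest tumors, −0.50 for the share of T and NK cells, 0.38 in pools 1 to 6, 0.11 within responder and 0.0547 within non-responder strains. With migratory dendritic cells and cluster 3 it was −0.0075 and 0.18 for the share of T and NK cells. The causes of these changes were not tested. Of the values recomputed for the comparisons, 278 kept their direction and side of the threshold, or a number of called genes near the main one, and 11 reversed. Another 12 were numbers of called genes beyond a set ratio to that of the main fit. A further 10 values were newly past the threshold and 7 no longer past it. For the called genes 38 kept their call and 21 lost it. In the gene tests 25 of 48 tumors with fewer than 10 cluster 13 cells were left out, the others had at least 32940 UMIs of the cluster, and 3 non-responder tumors were left in the class fit.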

Other observations

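Use of the T cell receptor beta V genes was read from the UMIs. Over all tumors 246 cluster 13 cells were assigned to 1 Trbv gene, led by Trbv16 and Trbv19 with 12.2% each, against 13.7% and 6.13% of 1451 cells of cluster 3. The CC075 isotype tumor of pool 9 was the 1 tumor with at least 20 such cells. Trbv16 and Trbv5 were each found in 4 of its 20 cells (Wilson 95% interval 8.07% to 41.6%), and 10 Trbv genes were seen. In cluster 3 of the same tumor Trbv5 held 38.9% of 18 cells and Trbv16 none. These values are descriptions, with no test.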
